A study of Homo sapiens with 6 samples.

Results

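Every cell builds its proteins on cytosolic ribosomes, and a second, separate set of ribosomes inside the mitochondria makes the few proteins that the mitochondrial genome encodes. Expression of the genes for the protein parts of both kinds of ribosome was examined in RNA-seq libraries of H1650, an established human lung adenocarcinoma cell line, labelled as control or as carrying an shRNA against SETD2, the enzyme that trimethylates lysine 36 of histone H3. Members were protein-coding genes chosen by name. Cytosolic names were RPL or RPS, a number, at most 1 of the letters A, X, Y or L, and any further digits. RPLP0, RPLP1, RPLP2 and RPSA were also taken, and RPL36AL fell outside this pattern. Mitochondrial names began with MRPL or MRPS and a number. This rule gave 160 genes of 15897 listed genes, of which 13617 were protein-coding. The cytosolic set held 82 genes, 32 named for the small 40S subunit and 50 for the large 60S subunit, and the mitochondrial set held 78 genes, 29 named for the small 28S subunit and 49 for the large 39S subunit. A name gives the subunit only in part, since MRPS18A and MRPS30 are known as proteins of the large subunit and MRPS36 as part of a metabolic enzyme complex. The cells of the 3 control libraries are labelled wild type, and those of the 3 other libraries carry an shRNA against SETD2, written shSETD2. According to the methods of the study, stable lines were made with lentivirus and 3 different shRNA plasmids were built, but the labels do not say whether the shSETD2 libraries stand for 3 plasmids or for repeats with 1. No label says that the libraries came from separate cultures, so p-values measure only the spread between these libraries.

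In the cytosol, ribosomal proteins are needed in near equal numbers, and their genes are among the most highly expressed of a growing cell. Their mRNAs begin with a short run of pyrimidines, the 5′ terminal oligopyrimidine or TOP tract, through which the mTOR pathway and the RNA-binding protein LARP1 control their translation and stability. Mitochondrial ribosomal proteins are also encoded in the nucleus, are made on cytosolic ribosomes and are imported, and their mRNAs as a rule carry no such tract.

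Levels were deposited as FPKM, in which fragments are scaled to gene length and library size, so the number of reads behind a value, and its counting error, is unknown. The FPKM of all listed genes summed to between 218769 and 224603 in each library. Over all genes, Pearson's r of log2(FPKM + 1) was 0.982 to 0.990 between libraries of the same group and 0.701 to 0.707 between libraries of different groups. The FPKM of SETD2 itself was 18, 10.2 and 17.6 in the control libraries and 8.97, 8.09 and 12.2 in the shSETD2 libraries, in each case in the order of the library numbers, as for all genes below. These groups overlapped, and the log2 difference, shSETD2 minus control, was -0.58 with an adjusted p of 0.0641 in limma. Without control library 2 it was -0.83 with an adjusted p of 0.00666, and without shSETD2 library 3 it was -0.73 with an adjusted p of 0.0420, both in limma. Under median ratio scaling it was only -0.25, with a limma adjusted p of 0.377. Over 17 alternatives the log2 difference of SETD2 ran from -0.83 to -0.16. Markers of cell type also differed between the groups. Of 12 epithelial markers 10 were listed, and their summed FPKM was 16.7 to 17.9 in control libraries against 406 to 459 in shSETD2 libraries. KRT18, at 9.11 to 10.8 FPKM in control and 236 to 266 FPKM in shSETD2 libraries, and KRT8 and KRT7 carried this sum, whereas CDH1 and ESRP2 were lower, with means of 1.27 and 1.93 FPKM against 0.0120 and 0.0219 FPKM. Of 12 lung epithelial markers 3 were listed, with sums of 21.1 to 22.4 and 36.8 to 41.1 FPKM, and NKX2-1, the transcription factor that defines lung epithelium, was at 1.44 to 1.80 FPKM in control and listed at 0 in every shSETD2 library. All 11 markers of embryonic kidney were listed, with sums of 48.4 to 52.7 FPKM in control and 60.5 to 71.7 FPKM in shSETD2 libraries. Among them LIN28B, SALL1, EYA1 and SIX2 were at 0 in the shSETD2 libraries. Sums were 74.6 to 90.6 and 147 to 156 FPKM for 7 of 11 mesenchymal markers, and 1.13 to 1.61 and 1.35 to 1.62 FPKM for 2 of 11 immune and blood markers. VIM and FN1 were the higher mesenchymal markers, and COL1A1 was lower, with means of 2.78 and 0.269 FPKM. A lower level of SETD2, which did not pass the test here, and other differences between the cells of the groups cannot be told apart in any comparison that follows. The part of the cell type markers in the results was not tested. Nor can fewer cells of a type be told apart from less RNA per cell in bulk RNA.

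The question was which ribosomal protein genes differed between the control libraries and the libraries labelled shSETD2. Genes of the cytosolic ribosome were lower in the shSETD2 libraries almost throughout, whereas those of the mitochondrial ribosome lay close to the middle of all genes, with members on both sides. Of the 82 cytosolic genes, 77 (93.9%) were lower and 2 were higher at an adjusted p under 0.05 in limma, where 51.8% of all 14068 genes tested were lower and 26.8% were higher. All 160 members passed the filter, a mean FPKM of at least 0.5. The FPKM of the 3 shSETD2 libraries lay entirely below that of the 3 control libraries for 77 cytosolic genes and entirely above it for 3, against 53.0% and 27.9% of all genes tested. The median log2 difference of the cytosolic set was -0.82, with quartiles of -1.05 and -0.54. At the median, a cytosolic gene had 55.9% of its control FPKM. All genes tested had a median log2 difference of -0.29, so the cytosolic median lay 0.53 below it. Of the mitochondrial genes, 41 (52.6%) were lower and 15 (19.2%) were higher, and 22 did not pass the test. Their median log2 difference was -0.32, which is 0.03 below that of all genes, and their quartiles were -0.63 and 0.13.

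Both subunits of the cytosolic ribosome showed the same pattern. Of the 40S genes 30 of 32 were lower, with a median log2 difference of -0.79, and of the 60S genes 47 of 50 were lower, with a median of -0.83. In the mitochondrial ribosome, 14 of 29 genes named for the 28S subunit were lower and 9 were higher, with a median of -0.25. Of 49 genes named for the 39S subunit, 27 were lower and 6 were higher, with a median of -0.38. Under median ratio scaling the balance of both turned, to 10 lower and 12 higher for the 28S and 13 lower and 17 higher for the 39S subunit, while 27 of the 40S and 37 of the 60S genes stayed lower. Whether the subunits of a ribosome differ from each other was not tested.

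**Figure D1:**
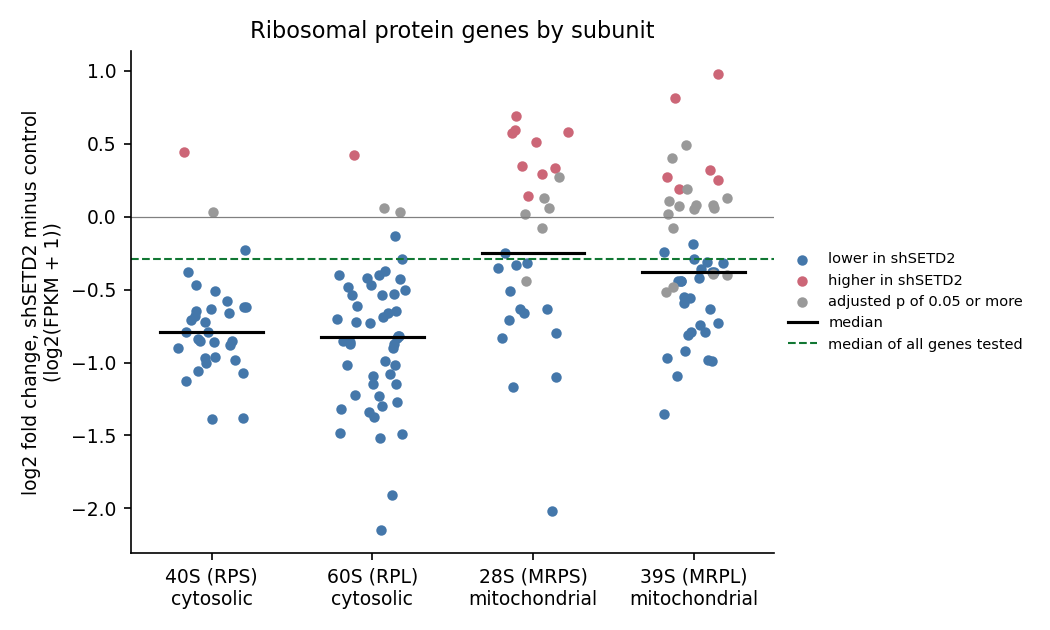
Each point is 1 gene, placed by the subunit in its name (x axis) and by its log2 difference, shSETD2 minus control, on the log2(FPKM + 1) scale (y axis). Colours give the limma call, black bars the median of a subunit and the dashed line the median of all genes tested at -0.29. Nearly all cytosolic points lie below that line, and mitochondrial points lie on both sides of it. Under median ratio scaling of the libraries, 64 cytosolic genes stayed lower and 6 were higher.

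Because the libraries differed in the middle of all genes, the counts were repeated under other scalings. Median ratio scaling, which moved the median of all genes from -0.29 to -0.01, left 64 cytosolic genes lower and 6 higher, with a median of -0.47. It turned the balance of the mitochondrial set to 23 lower and 29 higher, with a median of -0.01, and under it 38.3% of all genes were lower and 37.7% higher. Quantile normalization, with all genes at -0.11, gave 80 lower and 1 higher cytosolic gene and a median of -1.01, and 37 lower and 14 higher mitochondrial genes. Upper quartile scaling gave 76 lower and 4 higher cytosolic genes and 39 lower and 17 higher mitochondrial genes. Of all genes, 42.7% were lower and 32.5% higher under quantile normalization, and 48.4% and 29.2% under upper quartile scaling. Leaving the ribosomal protein genes out of the total gave 77 lower and 2 higher cytosolic genes, with 52.7% of all genes lower and 25.9% higher. A correction for transcript length and GC content, added after seeing the data, gave 72 lower and 7 higher cytosolic genes with a median of -0.46, and 23 lower and 25 higher mitochondrial genes with a median of -0.01. After that correction 37.4% of all genes were lower and 38.4% higher. The cytosolic median thus stayed below that of all genes under each of these scalings, whereas the mitochondrial count of lower against higher genes depended on the scaling. On the deposited scale and under all 5 of these alternatives alike, 64 cytosolic and 23 mitochondrial genes were lower, and RPS21 and 13 mitochondrial genes were higher. The share of all genes called under every scaling was not counted, so these counts cannot be set against it.

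**Figure D2:**
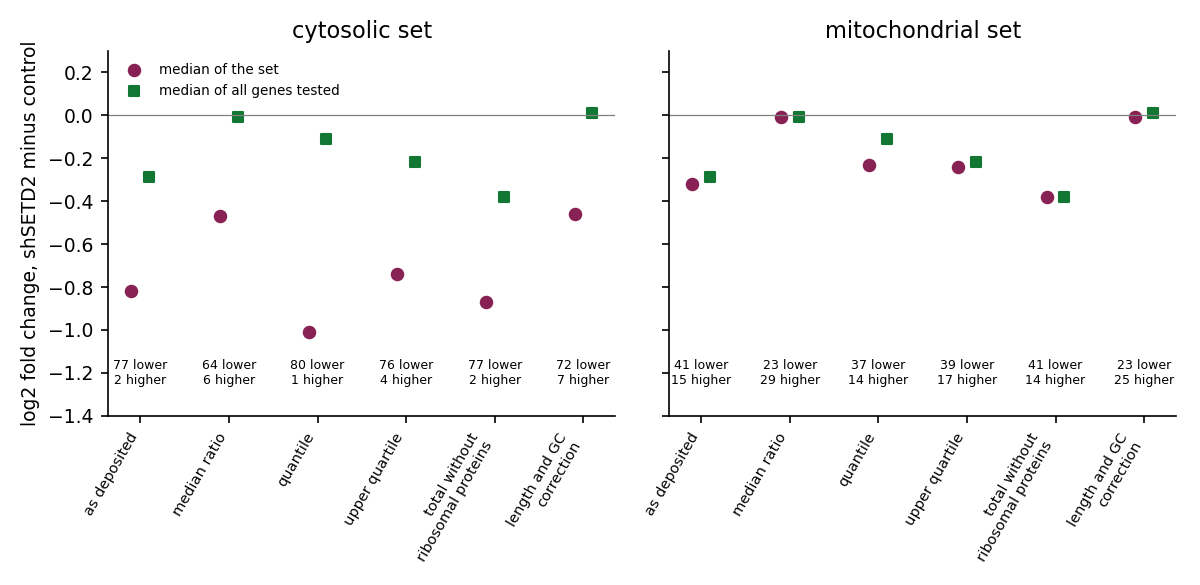
The median log2 difference, shSETD2 minus control (y axis), of the cytosolic set (left) and the mitochondrial set (right) is shown as circles under each scaling (x axis), beside the median of all genes tested as squares. The numbers give the members called lower and higher in limma. The cytosolic circle lies below the square under each scaling, at -0.46 to -1.01, and the mitochondrial circle lies within 0.12 of the square.

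Among cytosolic genes the greatest difference was in RPL22L1, a paralog that can stand in for RPL22 in the 60S subunit. The FPKM of RPL22L1 was 16.3, 16.8 and 18.2 in the control libraries, against 3.17, 3.02 and 3.04 in the shSETD2 libraries. Its log2 difference was -2.15 ± 0.056 (SE, limma adjusted p = 2.51e-07), or 18% of the control FPKM. RPL39L, the paralog of RPL39 known from the germ line and from tumours, came next at 10.3, 9.53 and 11.5 FPKM in control and 2.22, 2.40 and 1.60 FPKM in shSETD2 libraries. The log2 difference of RPL39L was -1.91 ± 0.12 (SE, limma adjusted p = 1.20e-05). Both are minor genes of the set by level, and in both the groups were far apart.

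Genes of the common ribosome followed. RPL36, a protein of the 60S subunit, was at 135, 131 and 137 FPKM in control and at 45.9, 46.1 and 46.7 FPKM in shSETD2 libraries, a log2 difference of -1.52 ± 0.031 (SE). RPL36A, on the X chromosome, was at 142, 132 and 149 FPKM against 49.4, 47.5 and 51.8 FPKM. RPL4, which reaches into the tunnel through which the new protein leaves the ribosome, was at 234, 230 and 234 FPKM in control and at 90.1, 91.3 and 68.8 FPKM in shSETD2 libraries, so that shSETD2 library 3 was lowest. RPS4X, the X-linked gene of a 40S protein, was at 459, 445 and 467 FPKM against 174, 170 and 178 FPKM. The log2 differences of RPL36A, RPL4 and RPS4X were -1.49, -1.48 and -1.39, with limma adjusted p values of 1.16e-06, 2.48e-05 and 1.51e-07. RPS6, the 40S protein that S6 kinase phosphorylates, was at 345, 347 and 355 FPKM in control and at 130, 129 and 143 FPKM in shSETD2 libraries, with a log2 difference of -1.38. RPL3, which helps to shape the peptidyl transferase centre, was at 240, 237 and 209 FPKM against 95.1, 90.5 and 96.1 FPKM. In each of these genes the highest shSETD2 library was below the lowest control library, and each stayed lower in limma under median ratio scaling. In all, 26 of the 82 cytosolic genes had under 50% of their control FPKM, a share close to that of all genes tested, 4041 of 14068.

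**Figure D3:**
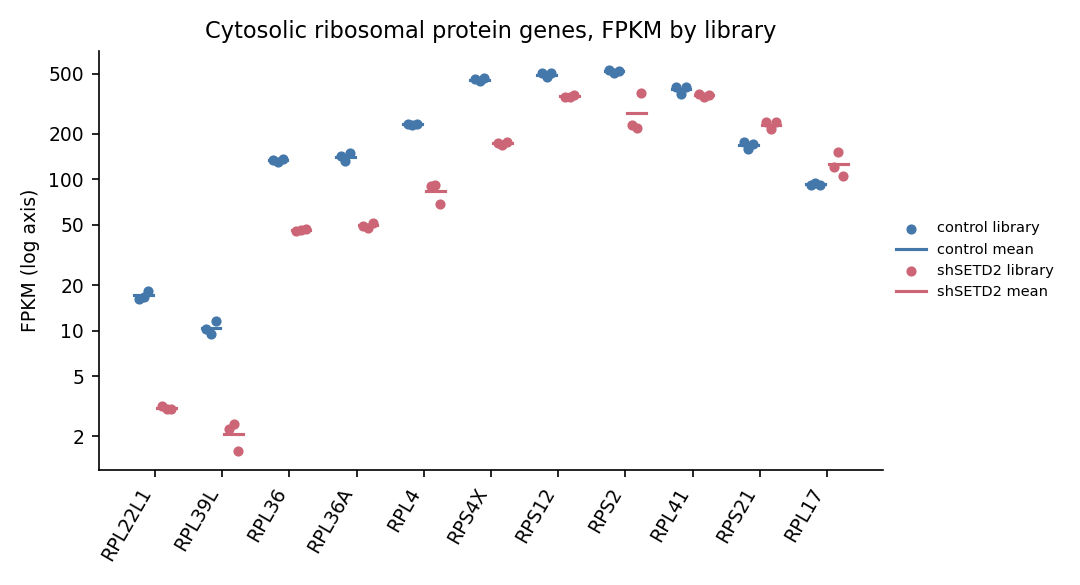
FPKM in each library (points, log axis) with the group mean (bars) is shown for the 6 cytosolic genes with the greatest fall, the members with the highest mean FPKM, and the called members that were higher. Control and shSETD2 points are far apart for RPL22L1 to RPS4X, close for RPL41, whose direction turns under median ratio scaling, and in the opposite order for RPS21 and RPL17.

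The start of the transcript was compared with the direction of each gene. Promoter sequences from RefSeq (GRCh38.p14, 250 bases before and 50 after the start) matched 135 members, 66 cytosolic and 69 mitochondrial, of which 22 had several starts. A TOP tract was counted where the first transcribed base was C and at least 4 more C or T followed without a break. At least 1 start with such a tract was found for 47 of the 66 cytosolic genes (71.2%), for 6 of the 69 mitochondrial genes (8.7%) and for 5.1% of all 27305 genes in the table. The windows below run from 10 bases before the start to 20 bases from it, so the first transcribed base is the letter after the first 10, and capitals mark the tract. They are shown because they set genes with the greatest fall beside genes that differed little or were higher.
RPL22L1: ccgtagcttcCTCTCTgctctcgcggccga
RPL36: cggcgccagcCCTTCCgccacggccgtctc
RPL36A: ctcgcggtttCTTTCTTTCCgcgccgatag
RPS6: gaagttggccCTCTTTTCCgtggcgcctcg
RPS12: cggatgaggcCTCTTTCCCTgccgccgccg
RPL41: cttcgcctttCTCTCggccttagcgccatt
RPS21: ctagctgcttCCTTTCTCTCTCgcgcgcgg
RPL4: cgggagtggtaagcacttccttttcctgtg
RPS4X: ctccagccccaatttctacgcgcaccggaa
RPS26: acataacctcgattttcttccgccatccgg
RPL17: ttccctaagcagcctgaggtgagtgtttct
On GRCh38.p14 these windows are chr3:170870176-170870205 (minus strand) for RPL22L1, chr19:5690285-5690314 (plus) for RPL36, chrX:101391001-101391030 (plus) for RPL36A, chr9:19380217-19380246 (minus) for RPS6 and chr6:132814559-132814588 (plus) for RPS12. Those of RPL41, RPS21 and RPS26 are chr12:56116623-56116652, chr20:62387093-62387122 and chr12:56041908-56041937, all on the plus strand. Those of RPL4, RPS4X and RPL17 are chr15:66504836-66504865, chrX:72277229-72277258 and chr18:49492446-49492475, all on the minus strand. Each covers the end of the promoter and the beginning of the first exon.

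Nearly all matched cytosolic genes were lower, with or without a tract. The counts below therefore cannot show whether a tract separates genes that fell from genes that did not. RPL22L1, RPL36 and RPS6 start with a tract and fell, but so does RPS21, which rose, and RPL4 and RPS4X fell without one. Beside 51.8% of all genes tested, 45 of the 47 cytosolic genes with a tract were lower, with a median log2 difference of -0.79. Of the 19 without one 17 were lower, with a median of -0.82. The difference between them was not tested, and a start in RefSeq need not be the start used in these cells.

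The 3 cytosolic genes with the highest mean FPKM were RPS12, RPS2 and RPL41. RPS2, a 40S protein near the path of the mRNA, was at 531, 505 and 521 FPKM in control and at 230, 220 and 372 FPKM in shSETD2 libraries, with shSETD2 library 3 well above the others. Its log2 difference was -0.96 ± 0.20 (SE, limma adjusted p = 0.00377). RPS12 was at 502, 477 and 503 FPKM against 349, 353 and 364 FPKM, a smaller log2 difference of -0.47. RPL41, which encodes the smallest ribosomal protein, was at 406, 368 and 407 FPKM against 365, 349 and 364 FPKM. The groups of RPL41 did not overlap, but its log2 difference of -0.13 (limma adjusted p = 0.0397) became 0.22 under median ratio scaling and 0.23 after the length and GC correction. Its adjusted p in limma was 0.0685 to 0.125 when any 1 library other than control library 2 was left out. RPS3A was also uneven, at 218, 137 and 232 FPKM in control and at 74.4, 75.0 and 116 FPKM in shSETD2 libraries.

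Only 5 of the 82 cytosolic genes did not pass the test as lower, and all 5 had a positive log2 difference on the deposited scale. RPS21, a small protein of the 40S subunit, was at 177, 159 and 172 FPKM in control and at 238, 215 and 238 FPKM in shSETD2 libraries. It was higher by 0.44 ± 0.059 on the log2 scale (SE, limma adjusted p = 5.10e-04), and its log2 difference was 0.32 to 0.80 over 17 alternatives. RPL17, a 60S protein at the mouth of the exit tunnel, was at 91.4, 94.8 and 92.0 FPKM against 121, 151 and 106 FPKM, a log2 difference of 0.42 (limma adjusted p = 0.0182). This call rested on individual libraries, with an adjusted p of 0.0539 without control library 1 and 0.0519 without control library 3, and under quantile normalization it was 0.205. RPL17 shares exons with a readthrough gene, so its reads may have been divided between them. RPL13, RPS26 and RPL37 had log2 differences of 0.03, 0.03 and 0.06, with limma adjusted p values of 0.649, 0.531 and 0.159. RPS26 was at 72.1, 73.9 and 69.4 FPKM in control and at 73.0, 71.3 and 75.6 FPKM in shSETD2 libraries. Relative to the median of all genes these 3 lay above, and under median ratio scaling they were higher, with log2 differences of 0.38, 0.38 and 0.41.

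Groups with a shared place in the cytosolic ribosome, chosen after their values were seen, were not uniform in size. The P stalk, which recruits translation factors, is built from RPLP0 and pairs of RPLP1 and RPLP2. RPLP1 was at 156, 163 and 176 FPKM in control and at 69.0, 75.2 and 65.1 FPKM in shSETD2 libraries, a log2 difference of -1.23. RPLP2 and RPLP0 had log2 differences of -0.87 and -0.47. RPL5 and RPL11 bind 5S rRNA together, and free of the ribosome they restrain MDM2. RPL5 was at 314, 305 and 312 FPKM against 136, 139 and 142 FPKM, a log2 difference of -1.15, whereas RPL11 was at 284, 271 and 291 FPKM against 200, 194 and 202 FPKM, a log2 difference of -0.50. All 5 genes were lower in limma. Under median ratio scaling the difference of RPLP0 was -0.12 with an adjusted p of 0.258, and the other 4 stayed lower.

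Some ribosomal proteins have a second gene, and the share of a pair within 1 library does not change when all its genes are multiplied by the same factor. In 6 of 8 pairs both genes were listed. RPL22L1 took 20.0%, 20.2% and 21.0% of the summed FPKM of RPL22 and RPL22L1 in control libraries 1 to 3, and 6.54%, 5.74% and 6.0% in the shSETD2 libraries. The means were 20.4% ± 0.515 and 6.09% ± 0.410 (SD, n = 3 each), and the exact permutation test gave p = 0.1, the smallest that 3 against 3 libraries allow. RPL22 itself was at 65, 66.2 and 68.4 FPKM in control and at 45.3, 49.6 and 47.6 FPKM in shSETD2 libraries, so both genes fell, RPL22L1 further.

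The pair of RPL36A and RPL36AL went the other way. RPL36AL, whose protein is nearly the same as that of RPL36A, took 41.3%, 42.1% and 40.6% of the pair in control and 69.8%, 70.2% and 68.3% in shSETD2 libraries. RPL36AL was at 96.0 to 102 FPKM in control and at 112 to 114 FPKM in shSETD2 libraries, with a log2 difference of 0.18 (limma adjusted p = 0.00238) that became -0.01 under quantile normalization. RPL36A supplied the larger part of the pair in control and the smaller part in shSETD2 libraries. The share of RPL26L1 in its pair with RPL26 was 11.9%, 15.2% and 13.8% in control and 21.4%, 20.8% and 22.2% in shSETD2 libraries. RPL26L1 itself had a log2 difference of -0.29 that became 0.06 under median ratio scaling, and RPL26 one of -1.08. RPL39L took 3.61% ± 0.358 of its pair with RPL39 in control and 1.80% ± 0.326 in shSETD2 libraries (SD, n = 3 each). RPS27L took 2.03% and 1.84% of its pair with RPS27, and in these 5 pairs the groups did not overlap. RPL7L1, at 9.38%, 10.6% and 8.49% against 9.95%, 7.76% and 7.80% of its pair with RPL7, overlapped between the groups (exact permutation p = 0.3). After Benjamini-Hochberg adjustment over the 6 pairs, the exact permutation p was 0.12 for the other 5, so none could pass 0.05 with 3 libraries a group. Paralogs and processed copies of ribosomal protein genes are close in sequence, and how reads that fit both were divided is not given, which makes these shares uncertain.

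**Figure D4:**
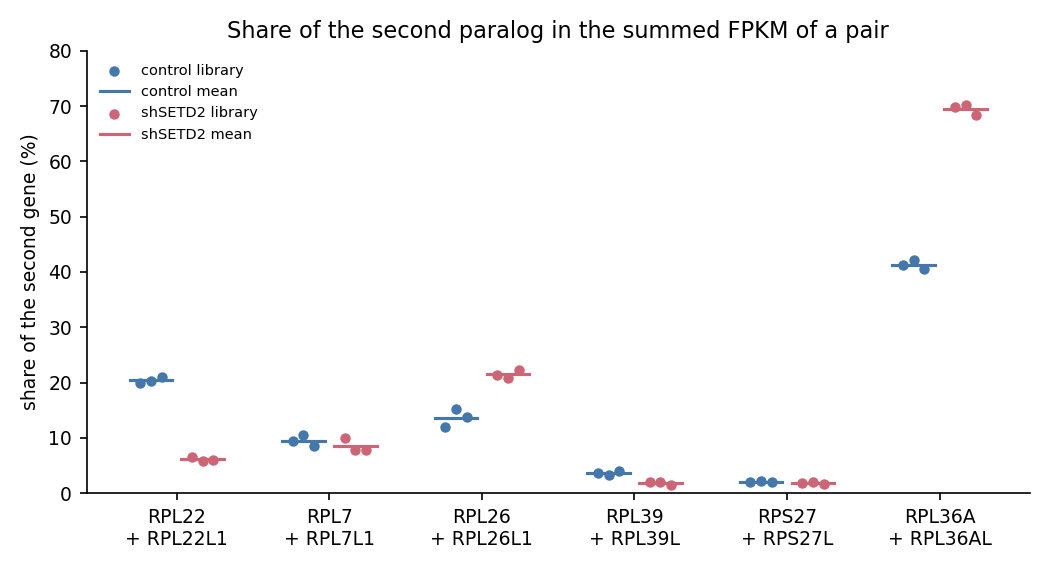
The share of the second gene in the summed FPKM of a pair (y axis, percent) is shown for 6 pairs of cytosolic ribosomal protein genes (x axis), with a point for each library and a bar for the group mean. RPL22L1 goes from a mean of 20.4% to 6.09% and RPL36AL from 41.3% to 69.5%, while RPL7L1 overlaps between the groups.

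A few ribosomal proteins bear other names. RACK1, a scaffold on the head of the 40S subunit, was at 116, 89.2 and 87.3 FPKM in control and at 45.2, 52.0 and 47.1 FPKM in shSETD2 libraries, a log2 difference of -0.99 (limma adjusted p = 2.69e-04). FAU, which encodes a 40S protein joined to a ubiquitin-like one, had a log2 difference of -0.01 and did not pass the test. RPS27A, a member of the cytosolic set that encodes ubiquitin joined to a 40S protein, was at 121, 116 and 125 FPKM against 97.0, 105 and 106 FPKM, a log2 difference of -0.23 that became 0.12 under median ratio scaling (limma adjusted p = 0.0718) and 0.18 after the length and GC correction (limma adjusted p = 0.0133).

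Mitochondrial ribosomal protein genes were expressed at lower levels. Control means ran from 3.16 to 78.8 FPKM with a median of 11.4 FPKM, against 3.41 to 519 FPKM with a median of 119 FPKM in the cytosolic set. In shSETD2 libraries the medians were 10.6 and 68.1 FPKM. Libraries of a group also agreed less closely, with a median coefficient of variation of 6.41% in control and 6.30% in shSETD2 libraries, against 3.57% and 4.33% in the cytosolic set. The groups did not overlap for 42 lower and 15 higher mitochondrial genes of 78, beside 53.0% and 27.9% of all genes tested, and they overlapped for 21.

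MRPS21, a small protein of the 28S subunit, stood apart from all other mitochondrial genes. It was at 48.8, 48.6 and 51.6 FPKM in control and at 11.4, 11.4 and 11.7 FPKM in shSETD2 libraries, or 23.2% of the control level. The log2 difference of MRPS21 was -2.02 ± 0.041 (SE, limma adjusted p = 9.32e-08), and it was -2.14 to -1.68 over 17 alternatives. The next was MRPL42, at 7.27, 7.83 and 7.40 FPKM against 2.45, 2.27 and 2.30 FPKM, with a log2 difference of -1.35. MRPS31 was at 13.2, 14.5 and 13.7 FPKM against 6.51, 5.81 and 4.55 FPKM, and MRPL54 at 16.5, 15.8 and 17.1 FPKM against 7.81, 7.36 and 8.18 FPKM. MRPS25 and MRPL37 varied more between control libraries, and control library 2 was the lowest in both. MRPS25 was at 16.7, 9.37 and 14.1 FPKM in control and at 4.81, 5.64 and 6.25 FPKM in shSETD2 libraries. MRPL37 was at 58.3, 41.4 and 66.6 FPKM against 23.4, 29.4 and 22.7 FPKM. The log2 differences of MRPS31, MRPS25, MRPL37 and MRPL54 were -1.17, -1.10, -1.09 and -0.99, and all 6 genes stayed lower under each alternative that gave a value. The mitochondrial members with the highest mean FPKM were lower too. MRPL12, which also binds the mitochondrial RNA polymerase, was at 77.5, 79.2 and 79.6 FPKM against 53.1, 48.4 and 54.6 FPKM. The log2 differences of MRPL12, MRPS34 and MRPS26 were -0.59, -0.71 and -0.80.

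At the other end, MRPL28 was at 10.9, 11 and 11.9 FPKM in control and at 24.8, 19.5 and 25.7 FPKM in shSETD2 libraries. Its log2 difference of 0.98 ± 0.11 (SE, limma adjusted p = 1.68e-04) was the most positive of all members. MRPL15 followed at 22.4, 24.4 and 23.1 FPKM against 38.7, 43.9 and 42.0 FPKM, with a log2 difference of 0.81. Both belong to the large subunit, and the groups were well apart in both. MRPS24 was at 5.96, 10.7 and 5.32 FPKM in control and at 12.3, 12.6 and 11.1 FPKM in shSETD2 libraries, where control library 2 lay close to the shSETD2 range. The adjusted p of MRPS24 was 0.0290 in limma but 0.0536 to 0.0912 without control library 1 or 3 or any 1 of the shSETD2 libraries. MRPS30 was at 11.4, 11.3 and 11.1 FPKM against 17, 18.5 and 16.9 FPKM, and MRPS6 at 6.10, 5.82 and 5.96 FPKM against 9.30, 9.17 and 9.52 FPKM. MRPS15 was at 13.2, 9.88 and 11.8 FPKM against 17.3, 18 and 17.9 FPKM. The log2 differences of MRPS30, MRPS15 and MRPS6 were 0.59, 0.58 and 0.57, and these 3 genes, MRPL28 and MRPL15 stayed higher under all 17 alternatives.

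A family of 3 genes related to the bacterial S18 protein, of which MRPS18A belongs to the large subunit and MRPS18B and MRPS18C to the small one, was chosen after its values were seen. MRPS18A was at 15.8, 18.1 and 16.3 FPKM in control and at 22.2, 20.3 and 21.4 FPKM in shSETD2 libraries, with a log2 difference of 0.33 (limma adjusted p = 0.00293). MRPS18C was at 4.75, 4.71 and 5.29 FPKM against 2.13, 2.60 and 2.26 FPKM, a log2 difference of -0.83 (limma adjusted p = 7.30e-05). MRPS18B was at 25.6, 23.5 and 24.3 FPKM against 27.9, 25.8 and 27.5 FPKM, a log2 difference of 0.14 (limma adjusted p = 0.0381), and it was not among the 13 genes higher under all scalings. Of the mitochondrial ribosomal proteins with other names, AURKAIP1 was higher with a log2 difference of 0.55, and GADD45GIP1 and PTCD3 were lower with -0.90 and -0.86. NDUFAB1, listed with them though not a protein of the mature ribosome, was lower with -0.38. DAP3 and CHCHD1, with 0.02 and -0.08, did not pass the test. Under median ratio scaling NDUFAB1 did not pass, with a log2 difference of -0.05, and DAP3 was higher, with one of 0.35 (limma adjusted p = 0.0176).

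**Figure D5:**
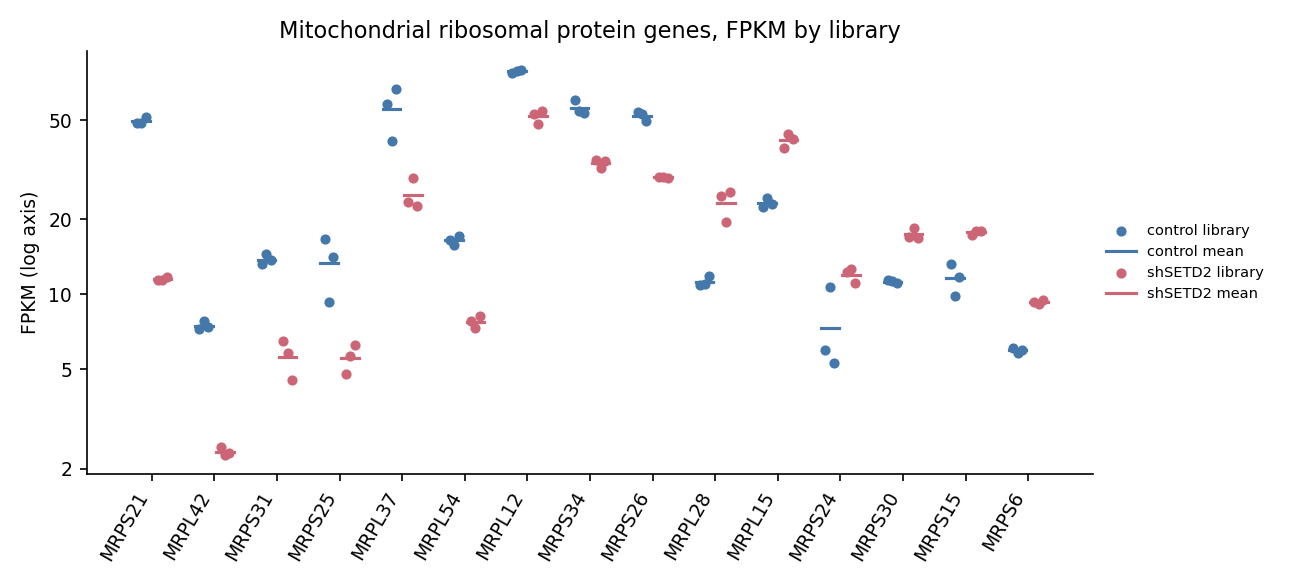
FPKM in each library (points, log axis) with the group mean (bars) is shown for the mitochondrial genes with the greatest fall (left), the members with the highest mean FPKM (middle) and those with the greatest rise (right). MRPS21 falls from a mean of 49.7 to 11.5 FPKM and MRPL28 rises from 11.3 to 23.4 FPKM, and in MRPS24 control library 2 lies just under the shSETD2 points.

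In the promoters, motifs known for genes of this kind were counted on both strands of the same RefSeq sequences. The ETS motif CCGGAAG was found in 43.5% of mitochondrial and 36.4% of cytosolic genes and in 12.2% of all genes. The YY1 motif AAGATGGCG was found in 18.8%, 9.1% and 2.1%, and the NRF1 motif GCATGCGC in 8.7%, 4.5% and 3.7%. For the E box CACGTG, which MYC binds, these shares were 13.0%, 7.6% and 8.8%, for the SP1 motif GGGCGG 60.9%, 57.6% and 48.3%, and for the TATA box TATAAA 4.3%, 9.1% and 14.0%. Matches to different motifs can overlap in a promoter and were counted apart. The windows of 4 mitochondrial genes, 10 bases before the start and 20 from it, show the ETS or YY1 letters in capitals in genes that fell and in genes that rose.
MRPS21: ttccggtagtgagaaccCTTCCGGtgggct
MRPL28: caggcgcggcagatcggCTTCCGGttccgg
MRPL42: tgggaccaggattgaaacAAGATGGCGggt
MRPS10: ctgagaggtcgggaccggcAAGATGGCGgc
They lie at chr1:150293851-150293880 (plus strand) for MRPS21, chr16:370519-370548 (minus) for MRPL28, chr12:93467504-93467533 (plus) for MRPL42 and chr6:42217842-42217871 (minus) for MRPS10 on GRCh38.p14. In MRPS21 and MRPL28 the capitals are the ETS motif read on the opposite strand. MRPS21 and MRPL28 hold the same letters and moved in opposite directions, and so did MRPL42 and MRPS10, which was higher with a log2 difference of 0.51. Of 13 mitochondrial genes with the YY1 letters 5 were lower and 6 were higher, with a median log2 difference of 0.14, and of 56 without them 33 were lower and 7 higher, with a median of -0.41. For the ETS letters the counts were 16 lower and 5 higher of 30 genes with them, and 22 lower and 8 higher of 39 without them. Over all genes tested 51.8% were lower and 26.8% were higher. The motif counts were made on the deposited scale only. Under median ratio scaling the whole mitochondrial set turned to 23 lower and 29 higher. These counts are a description, and a difference between genes with and without a motif was not tested.

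Summed over the set, the cytosolic genes came to 12644, 11997 and 12667 FPKM in control libraries 1 to 3 and to 7364, 7221 and 7651 FPKM in shSETD2 libraries. The means were 12436 ± 380 and 7412 ± 219 FPKM (SD, n = 3 each), so the shSETD2 sum was 59.6% of the control sum. This was 5.68%, 5.46% and 5.67% of the FPKM of all listed genes in control and 3.35%, 3.30% and 3.41% in shSETD2 libraries. The mitochondrial genes came to 1281, 1240 and 1313 FPKM against 1044, 1052 and 1086 FPKM, or 83.0% of the control sum. The ratio of the cytosolic to the mitochondrial sum does not change when all genes of a library are multiplied by the same factor. It was 9.73 ± 0.118 in control and 6.99 ± 0.107 in shSETD2 libraries (SD, n = 3 each), with no overlap. This ratio was not computed under quantile normalization or the length and GC correction. A single noncoding RNA weighed heavily in the totals, since RMRP, the RNA of RNase MRP, was at 12371 to 13818 FPKM in control and at 6828 to 7462 FPKM in shSETD2 libraries. Its part in the shift of all genes was not tested.

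The fall of the cytosolic genes was spread over the genome. They lie on 21 chromosomes, and their median log2 difference was negative on 19 of them and below the median of all genes of the same chromosome on 19. The exceptions were chromosome 18, with RPL17 alone, and chromosome 20, with RPS21 alone. On chromosome 20 the median of all genes was itself 0.40, and the 1 mitochondrial member there, MRPS26, was nonetheless lower. All 12 cytosolic genes of chromosome 19 were lower, with a median of -0.86, as were all 9 of chromosome 3, with a median of -1.02, and all 4 of the X chromosome, with a median of -1.34. On chromosome 6, 4 of 6 mitochondrial genes were higher and 0 were lower, while all 5 cytosolic genes there were lower. Across genes, which are not independent replicates, Spearman's rho of the log2 difference was 0.07 with mean FPKM, -0.08 with transcript length and 0.21 with GC content over the 82 cytosolic genes. Over the 78 mitochondrial genes it was 0.14, -0.06 and 0.13. Cytosolic transcripts are short, with a median length of 827 bases against 1242 bases in the mitochondrial set and 3092 bases over all genes tested, and the values after correction for length are those given with the scalings.

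Other genes of translation and ribosome production did not all follow the cytosolic set. Among 216 genes of 10 related lists, 122 were lower and 40 were higher, beside 51.8% and 26.8% of all genes tested. Under median ratio scaling 70 were lower and 75 higher, beside 38.3% and 37.7% of all genes. Closest to the cytosolic ribosome were translation factors and partners whose mRNAs are known to carry TOP tracts, of which 13 of 16 were lower and 1 was higher, with a median log2 difference of -0.61, and under median ratio scaling 11 were lower and 4 higher. EEF2, the factor that moves the ribosome along the mRNA, was at 848, 814 and 829 FPKM in control and at 423, 401 and 433 FPKM in shSETD2 libraries, a log2 difference of -0.98. NAP1L1, a histone chaperone, was the lowest of the list at -1.02, and EEF1D, a subunit of the exchange factor for EEF1A, was the 1 higher at 0.64. EEF1A1, which brings the loaded tRNA, was at 462, 443 and 434 FPKM against 436, 410 and 480 FPKM and overlapped.

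Initiation factors outside that list had 15 lower and 6 higher of 27 genes, with a median of -0.33, which turned to 5 lower and 11 higher under median ratio scaling. EIF1AX, which helps the 40S subunit to scan for the start codon, was at 59.1, 61.7 and 58.6 FPKM against 14.0, 16.3 and 14.5 FPKM, a log2 difference of -1.93. EIF6, which keeps the 60S subunit from joining too early and lies on chromosome 20, was at 23.9, 24.7 and 26.2 FPKM against 76.0, 71.9 and 77.7 FPKM, a log2 difference of 1.55. Of 85 ribosome biogenesis factors 49 were lower and 22 higher, with a median of -0.23, and under median ratio scaling 28 were lower and 38 higher. FBL, the methyltransferase that modifies rRNA, was at 67.0, 62.4 and 64.8 FPKM against 20.5, 19.0 and 22.6 FPKM, a log2 difference of -1.60, and EBNA1BP2, a factor of the 60S subunit, had one of 1.25. The 20 genes of RNA polymerase I, which makes rRNA, had 11 lower and 4 higher with a median of -0.30, led by POLR1D at -1.21 and POLR2L at 1.18. Under median ratio scaling 6 of them were lower and 6 higher. These 3 lists thus lay within 0.06 of the median of all genes.

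On the mitochondrial side, 7 of 12 translation factors were lower and 1 was higher, with a median of -0.42, from MTIF3 at -1.10 to MTRF1L at 0.71, and under median ratio scaling 5 were lower and 2 higher. Of 26 assembly factors of the mitochondrial ribosome 11 were lower and 1 was higher, with a median of -0.23, from YBEY at -1.23 to RBFA at 0.62, and under median ratio scaling 7 were lower and 4 higher, with a median of 0.06. Over all genes the shares were 51.8% lower and 26.8% higher and the median was -0.29. The 11 genes of the mTOR branch that controls TOP mRNAs had 8 lower and 1 higher, with a median of -0.32, and 4 lower and 3 higher under median ratio scaling. RPS6KB1, the kinase of RPS6, was at 15.9, 17.3 and 15.8 FPKM against 6.69, 7.70 and 7.09 FPKM, a log2 difference of -1.09. MTOR was higher with a log2 difference of 0.34. Of 9 genes of the MYC network, which drives ribosomal genes in growing cells, 3 were lower and 2 were higher, and under median ratio scaling 1 was lower and 3 were higher. MYC was at 2.53, 2.00 and 2.66 FPKM in control and at 2.97, 11.3 and 14.9 FPKM in shSETD2 libraries, with library 1 close to the controls. Its log2 difference was 1.44 with a limma adjusted p of 0.0348, which lay between 0.0725 and 0.109 when any 1 library other than shSETD2 library 1 was left out. MXD4, which opposes MYC, was lower with a log2 difference of -1.09.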

How the data were processed

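RNA-seq of total RNA was measured in 6 libraries of H1650 cells. The authors mapped reads to hg19 with Hisat2, quantified genes with Ballgown and deposited FPKM for each gene and library. Tool versions, and how the authors chose which genes to list, are not given in the sources used here. A second deposited table adds the authors' comparison (group means of log2(FPKM + 1), log2 fold change, fold change, p and q values), which was not used. All per-library columns matched a label. Genes whose mean FPKM reached 0.5 were tested on log2(FPKM + 1) with limma 3.58.1 in R 4.3.3 (lmFit, eBayes with trend, 2 groups, Benjamini-Hochberg adjustment over 14068 genes, threshold 0.05). The pseudocount understates changes of low genes. The length and GC correction (lowess, span 0.3) was added after seeing the data. Named genes were the 6 called members furthest in each direction and the 3 highest of each set, the paralog pairs, the called extremes of each related list and SETD2, and genes named beyond these were chosen after their values were seen. Members and lists were chosen with earlier results of these data known. Promoters came from RefSeq (GRCh38.p14), and chromosomes from the deposited table. The fit was tested on simulated data. Pairs were tested with scipy 1.17.1, and figures were drawn with matplotlib 3.10.9 (Python 3.11.15). Some genes of the lists are not reported here.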

Additional observations from a re-analysis of the deposited data

How the results depend on the processing

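Alternatives were pseudocounts of 0.1 and 0.01, no filter or a mean FPKM of at least 5, the scalings, no intensity trend, the replicate block and each library left out in turn. The 77 lower cytosolic genes stayed within 1.5 times under all of them. The 2 higher cytosolic genes became 6 under median ratio scaling, 1 under quantile normalization, 4 under upper quartile scaling, 7 after the length and GC correction, which was added after seeing the data, and 1 to 2 when a library was left out. The 41 lower and 15 higher mitochondrial genes became 23 and 29 under median ratio scaling and 23 and 25 after that correction, and 38 to 40 and 12 to 16 when a library was left out. The cause was not tested. The cytosolic share of all FPKM, 2.25 percentage points lower in shSETD2 libraries, had a difference of -3.55 points over protein-coding genes that are not mitochondrially encoded, -3.14 without the 10 highest other genes and -1.88 without the 5 highest members. The mitochondrial difference of -0.0959 points became -0.178, -0.148 and -0.0505.

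RPL41 reversed to 0.22 under median ratio scaling and 0.23 after the correction, RPL26L1 to 0.06 and 0.10, and RPL36AL to -0.01 under quantile normalization. Of 57 named genes, 49 changed neither call nor sign. With the replicate number as a block, 77 cytosolic genes were lower and 2 higher and 40 mitochondrial genes were lower and 15 higher, and the adjusted p of SETD2 in limma was 0.0156 with the same log2 difference of -0.58. The libraries share only a number, since the deviations of same-numbered libraries from their group means correlated at -0.0237, 0.0177 and -0.00766, so the block is no pairing. Depth is unknown for FPKM, and with 3 libraries a group no exact permutation p falls below 0.1.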
